A study of Mus musculus with 32 samples.

Results

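The genes described here were Slc1a5, Slc3a2, Slc7a1, Slc7a5, Slc7a7, Slc7a8, Slc7a11, Slc38a1, Slc38a2 and Slc38a6, measured in microglia of rTg4510 and wild type (WT) mice. These 10 encode amino acid transporters or, for Slc3a2, a chain that some of them pair with, and all are counted as transporters below. They were chosen by name from the Slc1, Slc3, Slc7 and Slc38 families, with earlier results of these data known. Other genes of these families, such as Slc1a4 and Slc7a2, are in a separate list below. Counts and medians of the 10 beside other genes are therefore a description. All 10 had a row among the 18588 genes of the expression table. From 4 months of age on Slc3a2, Slc7a1, Slc38a1 and Slc38a6 were higher in rTg4510 than in WT microglia, and Slc1a5 was higher at 6 and 8 months. Slc7a7 was lower at all 4 ages, at 8 months close to the threshold. Slc7a5, Slc7a8, Slc7a11 and Slc38a2 did not pass the test between the genotypes at any age, although Slc7a8 passed as lower at 6 and 8 months once the libraries were quantile normalized.

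Cells take up amino acids for protein synthesis, for the synthesis of glutathione and nitric oxide, and as fuel. Slc3a2 encodes the heavy chain of CD98, a glycoprotein without transport activity of its own that brings a light chain of the Slc7 family to the cell surface. Slc7a5 and Slc7a8 are light chains that exchange large neutral amino acids such as leucine, Slc7a7 is a light chain that releases arginine and lysine in exchange for neutral amino acids, and Slc7a11 is the light chain of system xc-, which takes up cystine and releases glutamate. Slc7a1 works without a heavy chain and imports arginine and lysine. Slc1a5 exchanges glutamine, serine and alanine, and Slc38a1 and Slc38a2 import glutamine and other small neutral amino acids together with sodium. Slc38a6 belongs to the same family as the latter pair.

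RNA was sequenced from CD11b-selected microglia of female mice at 2, 4, 6 and 8 months of age. The rTg4510 mice carry a pair of transgenes, a human tau with the P301L mutation behind a tetracycline-responsive element and a tetracycline transactivator under the CaMKIIα promoter, which drives tau in forebrain neurons and can be switched off with doxycycline. No doxycycline treatment was described. The WT mice were littermates with neither transgene on the 129/FVB F1 background. Each library came from the pooled forebrains of 8 to 10 animals, so that a library is a biological replicate but not 1 animal. Each of the 8 groups had 4 libraries, and the authors kept 28 of the 32. The kept libraries number 4 in each group of the 2- and 6-month mice and 3 in each group of the 4- and 8-month mice, and values are listed in replicate order. Values are log2 gene signals, median-normalized by the authors, and a difference of 1 is a change of 2 fold. The median of WT replicate 1 at 2 months was 5.63. In pooled cells, fewer cells of a type cannot be told apart from less RNA per cell.

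The genes lie on 8 mouse chromosomes (RefSeq, GRCm38.p6). Slc1a5 (Entrez 20514) is at chr7:16781334-16798274, Slc3a2 (17254) at chr19:8706882-8723369, Slc7a1 (11987) at chr5:148327410-148399904 and Slc7a5 (20539) at chr8:121881146-121907686. Slc7a7 (20540, chr14:54369442-54420068) and Slc7a8 (50934, chr14:54722215-54781886) are 302.1 kb apart, while Slc38a1 (105727, chr15:96571418-96643438) and Slc38a2 (67760, chr15:96687392-96699728) are 44 kb apart. Slc7a11 (26570) is at chr3:50364936-50499087 and Slc38a6 (625098) at chr12:73286739-73361998. The signals count whole genes over their exons, and reads of a gene and of an antisense transcript cannot be separated because the cDNA kit does not keep strand.

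RefSeq promoter entries were at hand for 7 of the 10 genes, in 12 windows, and the 250 bases before each start site were searched on both strands. The motifs were TGATGNAA, the core of the amino acid response element through which ATF4 acts, TGACNNNGC, the core of the antioxidant response element bound by NRF2, and CACGTG, the E-box. Slc1a5, Slc7a5 and Slc38a1 had no entry. The windows of higher genes (Slc3a2, Slc38a6), of the lower gene (Slc7a7) and of Slc7a11, whose window held TGATGNAA on both strands, are shown 5′ to 3′ on the strand of the gene, with matches to TGATGNAA in capitals:
Slc3a2, chr19:8713898-8714147, minus strand: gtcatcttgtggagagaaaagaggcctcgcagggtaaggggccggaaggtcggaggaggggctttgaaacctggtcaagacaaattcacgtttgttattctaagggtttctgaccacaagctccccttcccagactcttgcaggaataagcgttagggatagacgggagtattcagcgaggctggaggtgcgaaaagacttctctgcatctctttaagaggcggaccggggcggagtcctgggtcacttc
Slc38a6, chr12:73286598-73286847, plus strand: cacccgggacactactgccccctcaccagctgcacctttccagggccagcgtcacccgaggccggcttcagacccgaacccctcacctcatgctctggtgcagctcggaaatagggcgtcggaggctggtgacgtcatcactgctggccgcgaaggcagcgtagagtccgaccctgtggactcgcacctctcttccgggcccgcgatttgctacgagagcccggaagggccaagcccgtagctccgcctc
Slc7a7, chr14:54417945-54418194, minus strand: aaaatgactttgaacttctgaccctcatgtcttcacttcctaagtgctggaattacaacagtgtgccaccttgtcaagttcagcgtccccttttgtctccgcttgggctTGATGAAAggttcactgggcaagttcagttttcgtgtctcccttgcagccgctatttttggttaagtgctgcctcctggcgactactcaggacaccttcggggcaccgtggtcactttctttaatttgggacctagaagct
Slc7a11, chr3:50443614-50443863, minus strand: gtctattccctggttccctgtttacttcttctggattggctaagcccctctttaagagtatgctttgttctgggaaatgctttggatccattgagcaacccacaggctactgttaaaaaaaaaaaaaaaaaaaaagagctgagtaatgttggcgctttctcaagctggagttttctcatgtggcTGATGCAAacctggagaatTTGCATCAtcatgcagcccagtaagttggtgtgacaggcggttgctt
TGATGNAA was found in 3 of the 12 windows, against 3.45% of 32851 mouse promoter windows of the same length. The Slc7a11 window holds it 66 bases before the start site and, on the other strand, 47 bases before it. Slc7a7 holds it 141 bases before the start in the window shown and 243 bases before the start in another of its 5 windows. TGACNNNGC was found 11 bases before the start in 1 Slc7a1 window and 27 bases before the start of Slc38a2, and in 10.16% of all windows. CACGTG was in 0 of the 12 windows, against 6.02% of all. The windows with TGATGNAA thus belong to Slc7a7, which fell, and to Slc7a11, which did not pass the test, and to no gene that rose. Those with TGACNNNGC belong to Slc7a1, which rose, and to Slc38a2, which did not pass. A match is a description of the letters only.

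Libraries carried the profile of microglia, with a summed log2 level of 8 microglia markers between 14.4 and 15.2. The highest correlation between any pair of libraries was 0.966, and none were copies of each other. Mapt, the mouse tau gene, differed between the genotypes by -0.49, -0.63, -0.27 and -1.01 (log2) at the 4 ages, and none passed the test. Prnp, the prion protein gene on which the vector of the tau transgene was built, differed by 0.23, 1.13, 1.19 and 0.28 and passed at 6 months (FDR = 0.014). Among markers of other cells, 5 of 6 neutrophil genes were lower in rTg4510 libraries at 6 and 8 months, with a median log2 difference of -1.95 and -1.60. At 8 months replicate 1 of both genotypes stood apart: the summed log2 level of 6 astrocyte markers was 11.3 in the WT library against 9.21 and 9.09 in the others, and 9.47 against 8.44 and 8.76 in rTg4510 libraries. Results at 8 months were therefore also computed without these libraries.

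By the rule given below, no value of the 10 genes was near the detection floor of the table. The closest value, of Slc1a5, lay only 1.73 (log2) above the lowest value of its library, beside a limit of 1.585. Levels of different genes are summaries over exons of the authors and not per length, so their ranks within a library are given only as a description. Slc7a8 lay between the 93.5 and 95.6 percentile of all genes in the 28 libraries, Slc3a2 between 88.7 and 91.9, and Slc7a7 between 84.8 and 89.4. Slc38a2 (74.8 to 79.6), Slc38a1 (66.8 to 80.5) and Slc7a5 (67.5 to 78) followed, with ranges that overlap. Slc7a1 (20.9 to 50.3), Slc7a11 (10 to 44.2), Slc38a6 (15.3 to 41.7) and Slc1a5 (6 to 36.7) had the lowest signals, again with overlapping ranges. Of the 5 genes that rose in rTg4510 microglia Slc1a5, Slc7a1 and Slc38a6 were thus among the 4 with the lowest signals.

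A linear model over all 18588 genes and the 28 libraries was used to compare rTg4510 with WT at each age (limma, variances per gene from 20 residual degrees of freedom). A gene is said to rise or fall at a false discovery rate (FDR, Benjamini-Hochberg over all genes) under 0.05, and is called a differentially expressed gene (DEG) if it also changed by more than 1.5 fold, 0.58 on the log2 scale. Of the 10 transporters 0 were DEGs at 2 months, 2 at 4 months, 2 at 6 months and 3 at 8 months, all of them higher in rTg4510. Over all genes, 1.98%, 13.8%, 19.8% and 15.9% were DEGs at these ages, of which the higher ones made up 1.58%, 9.47%, 11.3% and 10.5% of genes tested and the lower ones 0.403%, 4.33%, 8.54% and 5.37%. By FDR alone 1, 5, 6 and 6 transporters passed, against 6.03%, 23.2%, 34.1% and 25.7% of all genes. At each age 1 of them, Slc7a7, was lower, and 0, 4, 5 and 5 were higher. Among all genes, 1.27%, 9.1%, 14.9% and 9.78% were lower and 4.76%, 14.1%, 19.1% and 16% were higher by this rule. The median log2 difference of the 10 was 0.06, 0.36, 0.29 and 0.47, beside 0.01, -0.04, -0.03 and -0.01 for all genes. All rTg4510 libraries lay above all WT libraries for 0, 5, 5 and 5 of the transporters at the 4 ages, while the share of all genes was 7.49%, 19.1%, 18.2% and 21.2%. All lay below for Slc7a7 alone at each age, beside 3.51%, 17.5%, 14.6% and 15.5% of all genes.

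**Figure D1:**
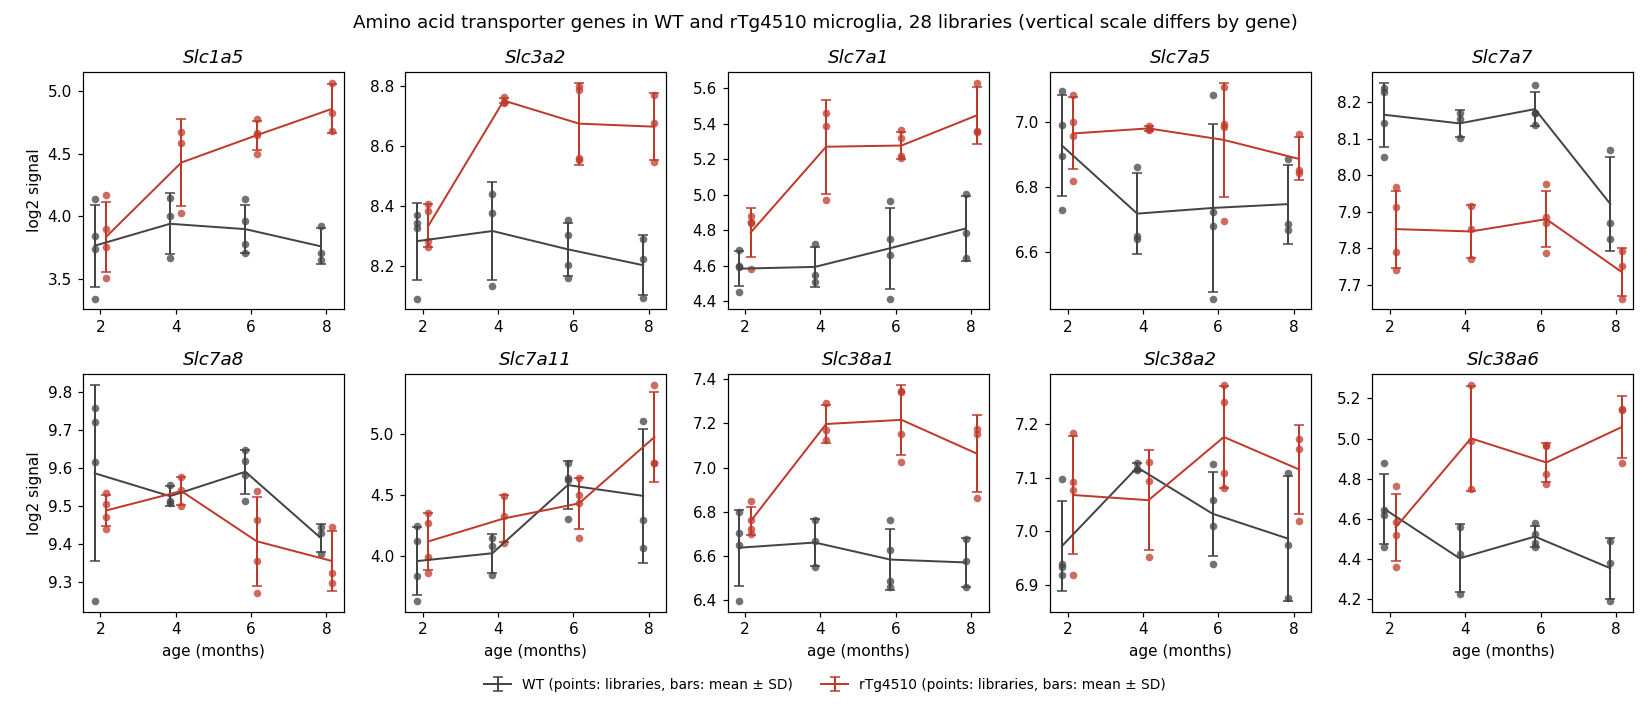
Log2 signal of each transporter (vertical axis, own scale for each gene) against age in months, in WT (grey) and rTg4510 (red) microglia; points are the 28 kept libraries, and bars are mean ± SD of 3 or 4 libraries. From 4 months the red points of Slc3a2, Slc7a1, Slc38a1 and Slc38a6 lie above the grey ones, those of Slc7a7 lie below at all 4 ages, and those of Slc7a8 and Slc38a2 overlap at every age.

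Slc1a5 had the largest difference of the 10 transporters at 6 and at 8 months. At 2 months its log2 signal was 3.84, 4.13, 3.34 and 3.73 in the WT libraries and 4.17, 3.76, 3.90 and 3.50 in the rTg4510 libraries. At 8 months it was 3.65, 3.71 and 3.92 in WT and 4.82, 4.68 and 5.07 in rTg4510. The genotypes overlapped at 2 months and were apart by more than the whole WT range at 8 months. The difference was 0.07 ± 0.17 (log2, SE, FDR = 0.913) at 2 months and 1.10 ± 0.20 (FDR = 0.000225) at 8 months, a change of 2.14 fold. In between, the libraries read 4.00, 3.67 and 4.14 in WT and 4.58, 4.03 and 4.67 in rTg4510 at 4 months, where 1 rTg4510 library fell within the WT range and the difference of 0.49 ± 0.20 did not pass (FDR = 0.0853). Without that library, replicate 2, the difference was 0.69 and passed. At 6 months they read 3.77, 3.96, 4.14 and 3.71 in WT and 4.78, 4.66, 4.65 and 4.50 in rTg4510, with no overlap and a difference of 0.75 ± 0.17 (FDR = 0.00177). With an offset of 16, which shrinks low genes, the difference was 0.41 at 6 months and 0.61 at 8 months.

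Slc38a1, the sodium-coupled glutamine importer, was higher in rTg4510 microglia from 4 months on. It read 6.39, 6.80, 6.71 and 6.65 in WT and 6.72, 6.85, 6.70 and 6.76 in rTg4510 microglia at 2 months, groups that overlap. At 4 months it read 6.67, 6.76 and 6.55 in WT and 7.13, 7.17 and 7.29 in rTg4510, and at 6 months 6.76, 6.63, 6.46 and 6.49 against 7.15, 7.35, 7.02 and 7.34. At both ages the lowest rTg4510 library was above the highest WT library. At 8 months the values were 6.46, 6.58 and 6.68 against 7.15, 6.86 and 7.17. The log2 difference was 0.12 ± 0.09 (FDR = 0.609), 0.54 ± 0.11 (FDR = 0.000836), 0.63 ± 0.09 (FDR = 1.76e-05) and 0.49 ± 0.11 (FDR = 0.00165) from the youngest to the oldest mice, and exceeded 1.5 fold at 6 months. In a fit on the 8-month libraries alone the FDR was 0.0804. Its neighbour and relative Slc38a2 did not pass the test at any age. Its levels stayed between 6.88 and 7.27 in all 28 libraries, and its log2 difference was 0.10, -0.06, 0.14 and 0.13, with FDR values from 0.0898 to 0.61. The 95% confidence interval ran from 0.01 to 0.28 at 6 months and from -0.02 to 0.28 at 8 months, so that a change of 1.5 fold lay outside it.

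Slc38a6 read 4.62, 4.88, 4.46 and 4.64 in WT and 4.36, 4.76, 4.52 and 4.59 in rTg4510 microglia at 2 months, with no separation. At 4 months the values were 4.23, 4.42 and 4.56 against 4.75, 4.99 and 5.27, and at 8 months 4.19, 4.38 and 4.49 against 5.14, 4.88 and 5.15. From 4 months on every rTg4510 library was above every WT library. At 6 months they were closer, with 4.48, 4.46, 4.58 and 4.52 in WT and 4.96, 4.77, 4.97 and 4.82 in rTg4510. The log2 difference was -0.09 ± 0.11 (FDR = 0.778) at 2 months, 0.60 ± 0.13 (FDR = 0.00143) at 4 months, 0.37 ± 0.11 (FDR = 0.0137) at 6 months and 0.70 ± 0.13 (FDR = 0.000248) at 8 months. The call as a DEG at 4 months was lost without WT replicate 1 (0.508) or rTg4510 replicate 4 (0.465), and the FDR was 0.128 in a fit on the 4-month libraries alone. At 8 months it was 0.579 without replicate 1 of both genotypes (FDR = 0.0126), just under 1.5 fold.

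Slc7a1, the importer of arginine and lysine, was higher from 4 months. Its log2 signal was 4.59, 4.45, 4.60 and 4.69 in WT and 4.84, 4.85, 4.88 and 4.58 in rTg4510 at 2 months, where 1 rTg4510 library lay among the WT libraries. At 4 months it was 4.55, 4.51 and 4.72 against 5.46, 4.97 and 5.38, and at 6 months 4.42, 4.75, 4.96 and 4.66 against 5.32, 5.21, 5.22 and 5.36. The groups no longer overlapped at either age. At 8 months the values were 4.64, 5.004 and 4.78 against 5.35, 5.63 and 5.36. The log2 difference was 0.20 ± 0.12 (FDR = 0.418), 0.68 ± 0.13 (FDR = 0.000666), 0.58 ± 0.12 (FDR = 0.000507) and 0.64 ± 0.13 (FDR = 0.00105) at the 4 ages. The value at 6 months is 1.49 fold, just too small for a DEG, and those at 4 and 8 months are 1.6 and 1.56 fold, just large enough. Single libraries decided the call accordingly: the value was 0.583 at 4 months without rTg4510 replicate 1, and 0.553 or 0.545 at 8 months without WT replicate 1 or rTg4510 replicate 2. In fits on the libraries of 1 age alone the FDR was 0.0868 at 4 months and 0.0654 at 8 months.

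Slc3a2, the CD98 heavy chain, rose by a smaller but evenly repeated amount. It read 8.09, 8.37, 8.33 and 8.34 in WT and 8.38, 8.26, 8.41 and 8.28 in rTg4510 at 2 months. At 4 months it read 8.44, 8.13 and 8.38 against 8.75, 8.76 and 8.75, at 6 months 8.30, 8.16, 8.20 and 8.35 against 8.55, 8.56, 8.79 and 8.80, and at 8 months 8.09, 8.29 and 8.22 against 8.68, 8.77 and 8.55. All rTg4510 libraries from 4 months on were above all WT libraries of any age. The log2 difference was 0.05 ± 0.08 (FDR = 0.842) at 2 months and then 0.44 ± 0.09 (FDR = 0.00098), 0.42 ± 0.08 (FDR = 0.000222) and 0.46 ± 0.09 (FDR = 0.000472). These are changes of 1.35, 1.34 and 1.38 fold, so that the gene passed the FDR at 3 ages without being a DEG at any. At 4 months the FDR was 0.0669 in a fit on the libraries of that age alone and 0.0809 with all 32 libraries. Quantile normalization lowered the value at 6 months to 0.27 (FDR = 0.00607).

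None of the light chains among the 10 passed the test as higher, and Slc7a7 fell. At 2 months it read 8.05, 8.23, 8.24 and 8.14 in WT and 7.79, 7.74, 7.97 and 7.91 in rTg4510 microglia, and it was the only transporter of the 10 whose genotypes were apart at this age. At 4 months it read 8.17, 8.15 and 8.10 against 7.77, 7.85 and 7.91, and at 6 months 8.14, 8.17, 8.25 and 8.17 against 7.79, 7.87, 7.88 and 7.98. At 8 months it read 7.83, 7.87 and 8.07 against 7.66, 7.75 and 7.79. The log2 difference was -0.31 ± 0.06 (FDR = 0.00156), -0.29 ± 0.07 (FDR = 0.00237), -0.30 ± 0.06 (FDR = 0.000341) and -0.19 ± 0.07 (FDR = 0.0472), or 1.24, 1.23, 1.23 and 1.14 fold lower. The call at 8 months was close to the threshold and held in 11 of 28 fits that left out 1 library each, beside 28 of 28 at 2, 4 and 6 months. It was -0.20 (FDR = 0.0962) without replicate 1 of both genotypes. The FDR at 8 months was 0.0638 with moderated variances and 0.252 in a fit on the 8-month libraries alone. At 2 months the FDR was 0.0838 in a fit on the libraries of that age alone. With all 32 libraries it passed at 4 months (-0.62, FDR = 0.00813) and not at 2, 6 and 8 months (FDR = 0.699, 0.228 and 0.569).

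Slc7a5 and Slc7a8, the exchangers of large neutral amino acids, did not pass at any age with the scaling of the authors. Slc7a5 read 6.65, 6.86 and 6.64 in WT and 6.99, 6.98 and 6.98 in rTg4510 at 4 months, which do not overlap, but its difference of 0.26 ± 0.13 had an FDR of 0.148. At the other ages its genotypes overlapped, with differences of 0.04, 0.21 and 0.14. The 95% interval reached from 0.00 to 0.53 at 4 months and from -0.02 to 0.44 at 6 months, which leaves room for a change of the size seen for Slc3a2. Slc7a8, with the highest signal of the 10, read 9.51, 9.62, 9.58 and 9.65 in WT and 9.46, 9.36, 9.27 and 9.54 in rTg4510 at 6 months. This was its largest difference, -0.18 ± 0.08 (FDR = 0.074), with an interval from -0.34 to -0.02. At 2, 4 and 8 months it differed by -0.10, 0.01 and -0.06. After quantile normalization these values were -0.21 (2 months), -0.20 (4 months), -0.41 (6 months) and -0.27 (8 months), of which those at 6 months (FDR = 0.000469) and 8 months (FDR = 0.0376) passed as lower, so that the call for this gene depends on the scaling.

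Slc7a11, the cystine and glutamate exchanger, was the most variable of the 10 at 8 months. It read 5.11, 4.30 and 4.07 in WT and 5.40, 4.76 and 4.76 in rTg4510 libraries, so that replicate 1 was highest in both genotypes. These are the same libraries whose astrocyte markers were highest; the part of those cells in the Slc7a11 signal was not tested. The difference was 0.48 ± 0.23 (FDR = 0.147), with a 95% interval from -0.01 to 0.97. Taken by number, all 3 pairs were higher in rTg4510, by 0.29, 0.46 and 0.69, and with the replicate block the FDR was 0.0698. It was 0.58 (FDR = 0.0618) without replicate 1 of both genotypes. Leaving out 1 library gave values from 0.27 to 0.79, and of the 28 such fits the one without WT replicate 1 passed (FDR = 0.0109). At 2, 4 and 6 months the differences were 0.16, 0.29 and -0.15, with FDR values of 0.791, 0.428 and 0.606 and overlapping libraries at each age.

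**Figure D2:**
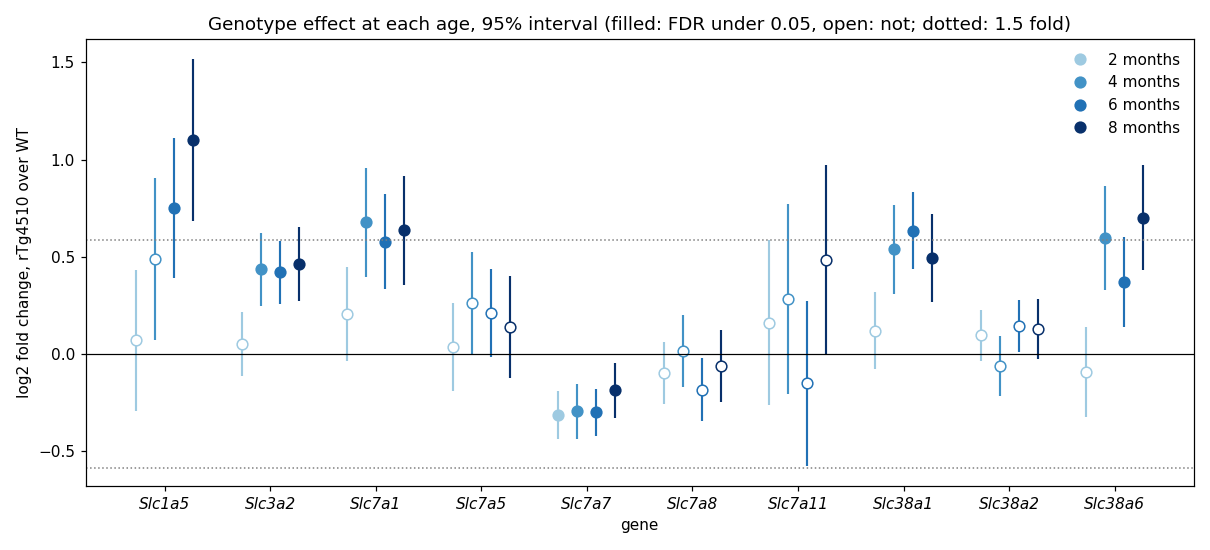
Log2 fold change of rTg4510 over WT (with 95% confidence interval) for each transporter at 2, 4, 6 and 8 months; filled symbols pass an FDR of 0.05. Slc1a5 reaches the highest value, 1.10 at 8 months, Slc3a2 stays between 0.42 and 0.46 from 4 months on, and Slc7a7 lies between -0.31 and -0.19.

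Whether the difference between genotypes itself changed with age was tested as an interaction. Between 2 and 4 months it grew for Slc38a6, by 0.69 ± 0.17 (log2, FDR = 0.0154). By FDR and a change of more than 1.5 fold this was 1 of the 10 transporters, beside 4.66% of all genes. For Slc3a2, Slc7a1, Slc38a1 and Slc1a5 the test of the growth from 2 to 4 months did not pass. Between 4 and 6 months 0 of the 10 passed by FDR and fold, beside 0.156% of all genes. Between 6 and 8 months 0 of the 10 and 0 of all 18588 genes passed by FDR and fold in limma, 841 of them with an unadjusted p under 0.05. Against 2 months, the difference at 8 months was larger by 1.03 ± 0.26 for Slc1a5 (FDR = 0.0144), by 0.80 ± 0.17 for Slc38a6 (FDR = 0.00399) and by 0.41 ± 0.12 for Slc3a2 (FDR = 0.0311). These are 3 of the 10 by FDR alone, beside 9.76% of all genes. Against 2 months, the difference at 6 months was larger by 0.51 ± 0.13 for Slc38a1 (FDR = 0.0124) and by 0.37 ± 0.11 for Slc3a2 (FDR = 0.0291), 2 of the 10 beside 13.4% of all genes. Slc7a1 and Slc7a7 passed in none of these interactions. The calls for Slc3a2 were lost with the replicate block (FDR = 0.0547 for 6 months and 0.0607 for 8 months), with quantile normalization (0.11 and 0.0806) and with all 32 libraries (0.259 and 0.215), and each held in 19 of 28 fits that left out 1 library. That at 8 months was also lost without replicate 1 of both genotypes (FDR = 0.151) and in a fit on those ages alone (FDR = 0.0569). The call for Slc1a5 was lost under the same pair of settings (FDR = 0.0645 and 0.0544) and with all 32 libraries (FDR = 0.0877). For Slc38a6 the FDR from 2 to 4 months was 0.0919 in a fit on those ages alone and 0.564 with all 32 libraries, and from 2 to 8 months it was 0.129 with all 32 libraries. The call for Slc38a1 held under each of these settings. These comparisons share the 2-month libraries.

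The change with age was also tested within each genotype. From 2 to 8 months in WT microglia 0 of the 10 were DEGs, beside 1.27% of all genes, and by FDR alone Slc7a7 fell by 0.24 on the log2 scale (FDR = 0.0321), 1 of the 10 beside 4.21% of genes. This call was lost with quantile normalization (FDR = 0.0584), without replicate 1 of both genotypes at 8 months (0.166), in a fit on those groups alone (0.294) and with all 32 libraries (0.845). In rTg4510 microglia over the same ages 3 of the 10 were DEGs, beside 10.5% of all genes. Slc1a5 rose by 1.03 ± 0.19 (FDR = 0.000357), Slc7a1 by 0.66 ± 0.13 (FDR = 0.000569) and Slc7a11 by 0.86 ± 0.22 (FDR = 0.00691). The rise of Slc7a11 was 0.64 (FDR = 0.019) without replicate 1 of both genotypes at 8 months, but did not pass in a fit on those groups alone (FDR = 0.072) or with all 32 libraries (0.64, FDR = 0.184). Slc38a6 (0.50), Slc3a2 (0.33) and Slc38a1 (0.31) passed the FDR alone, which makes 6 of the 10 beside 21.7% of all genes. In a fit on those groups alone the FDR was 0.0617 for Slc38a6 and 0.102 for Slc38a1, and with all 32 libraries it was 0.0722 for Slc7a1. For Slc7a11 the interaction between genotype and age did not pass, and in WT libraries its mean rose from 3.96 ± 0.28 (SD, n = 4) to 4.49 ± 0.55 (SD, n = 3) without passing the test.

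The transporters that rose had similar profiles over the 28 libraries. Pearson's r was 0.842 between Slc1a5 and Slc7a1, 0.818 between Slc3a2 and Slc38a1, and 0.791 between Slc3a2 and Slc7a1. Once each library was taken relative to its own group mean, r was 0.39, -0.01 and 0.16, so that most of the likeness lay in the differences between groups. Slc7a7 and Slc7a8 had an r of 0.631, and of 0.474 within groups. The genes of the table most like each transporter over these libraries were Pdcd1lg2 (r = 0.906) and Apobec1 (0.899) for Slc1a5, Plau (0.937) and Dapk1 (0.934) for Slc3a2, and Dpy19l4 (0.948) and Ldha (0.932) for Slc38a1. Xylt1 and Synj2 (both 0.926) were nearest to Slc7a1, and Speg (0.866) and Apbb2 (0.852) to Slc38a6. For Slc7a7 they were Phyhd1 (0.887) and Ttc17 (0.885). The transporters that did not pass had weaker neighbours, from 0.70 for Runx1 with Slc38a2 to 0.774 for Stat5b with Slc7a8. All of these points share libraries, groups and normalization, and the values are a description.

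The other amino acid transporters of the plasma membrane gave a mixed picture, and 21 of 35 listed genes had a row. At 6 months 3 were DEGs that rose and 6 that fell, beside 11.3% higher and 8.54% lower DEGs among all genes, with a list median of -0.45 beside 0.29 for the 10 transporters above and -0.03 for all genes; the median is the same with genes near the floor set at their bound. Slc7a2, an arginine and lysine importer of the same family as Slc7a1, read 2.19 to 2.82 in WT libraries, near the floor, and 4.48 to 5.02 in rTg4510 libraries at 6 months. It was at least 3.07-fold higher, with the WT group set at the floor of 3 counts. The taurine transporter Slc6a6 rose by 0.72 ± 0.08 (FDR = 1.92e-07), and Slc16a10, which carries aromatic amino acids, by 0.66 ± 0.10 (FDR = 2.22e-05). Slc1a4, which exchanges serine, alanine and cysteine, fell by 1.09 ± 0.25 on the log2 scale (FDR = 0.00144), and Slc43a1, a carrier of large neutral amino acids, fell by 0.71 ± 0.17 (FDR = 0.00306). Slc38a3, a glutamine carrier, and Slc38a11 were near the floor in rTg4510 libraries and at least 1.52-fold and 1.6-fold lower. Slc38a3 is known from astrocytes, whose summed markers ran from 8.44 to 8.70 in WT and from 7.56 to 8.52 in rTg4510 libraries at 6 months; their part in these values was not tested.

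Transporters of the lysosome and of mitochondria were read in the same way. Of 10 lysosomal transporters 0 were DEGs at 2 months and 3, 2 and 3 at 4, 6 and 8 months, all higher, beside 1.58%, 9.47%, 11.3% and 10.5% of all genes. Mfsd12, a cysteine importer of the lysosome, rose by 0.93 ± 0.19 (FDR = 0.000652) and Slc36a4 by 0.74 ± 0.12 (FDR = 7.98e-05) at 6 months. Of 11 mitochondrial carriers, Slc25a13, which exchanges aspartate for glutamate, rose by 0.87 ± 0.17 (FDR = 0.000398), and Slc25a29, a carrier of basic amino acids, fell by 1.13 ± 0.31 (FDR = 0.00738), with libraries that overlapped. The list medians at 6 months were 0.15 and -0.03.

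Enzymes that make or use what these transporters carry were read beside them. Of 22 measured genes for amino acid synthesis and breakdown, 1, 5, 4 and 4 were higher DEGs at the 4 ages and 0, 1, 1 and 1 were lower, beside 1.58%, 9.47%, 11.3% and 10.5% higher and 0.403%, 4.33%, 8.54% and 5.37% lower among all genes. At 6 months Got1, which links aspartate and glutamate, rose by 1.58 ± 0.08 (FDR = 2.39e-12), Psat1 of serine synthesis by 1.63 ± 0.22 (FDR = 5.2e-06) and Asns, asparagine synthetase, by 0.98 ± 0.31 (FDR = 0.0179). Ass1, which remakes arginine from citrulline, was near the floor in WT libraries (2.08 to 2.76) and at least 1.94-fold higher at 6 months. Bcat1, a branched-chain amino acid transaminase, read 3.58 to 4.64 in WT and 2.12 to 2.30 in rTg4510 libraries and was at least 2.5-fold lower. Of 7 measured genes of glutathione synthesis and turnover, Chac1, which breaks down glutathione, rose by 1.91 ± 0.48 (FDR = 0.00375) and Ggt5 fell by 0.99 ± 0.10 (FDR = 4.13e-08). The WT libraries of Chac1 were near the floor at 2 and 4 months, though not by this rule at 6 months. The list medians were 0.28 for the enzymes and 0.08 for the glutathione genes.

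**Figure D3:**
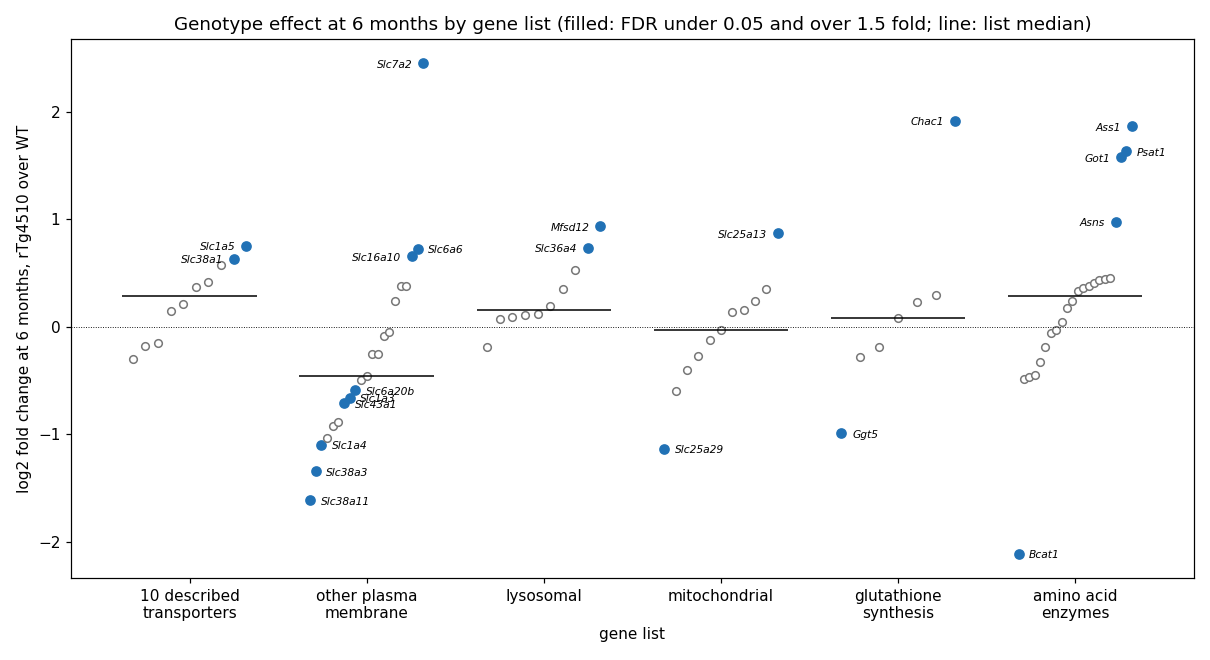
Log2 fold change of rTg4510 over WT at 6 months for each measured gene (points), by list (horizontal axis); filled points are DEGs, named beside them, and the line is the list median. The 10 transporters run from -0.30 to 0.75, the other plasma membrane transporters from -1.61 for Slc38a11 to 2.45 for Slc7a2, whose WT libraries are near the floor.

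Markers of other cells that may be left in a CD11b selection were summed for each library. Neutrophil markers ran from 9.001 to 10.2 in WT and from 7.37 to 8.10 in rTg4510 libraries at 6 months, and from 9.89 to 10.3 and from 7.70 to 9.01 at 8 months. At 4 months, where 0 of the 6 passed the test, they ran from 9.08 to 9.99 and from 8.16 to 8.90. They thus moved with the genotype at ages at which Slc1a5, Slc3a2, Slc7a1, Slc38a1 and Slc38a6 moved in the other direction and Slc7a7 in the same direction; their part in these results was not tested. At 2 months, where Slc7a7 was already lower, the neutrophil sums overlapped, with 9.05 to 9.79 in WT and 8.66 to 10.3 in rTg4510 libraries. At that age 3 of 8 microglia markers passed as lower by FDR (Itgam, Cx3cr1 and Tmem119, by 0.24 to 0.35), and the sums of 2 T cell markers were apart, at 5.72 to 6.14 in WT and 6.20 to 6.55 in rTg4510 libraries, with neither marker past the test. Of 8 microglia markers 3 were lower DEGs at 6 months (Tmem119, Sall1 and Itgam, the last encoding CD11b itself) and 0 were higher DEGs. By FDR alone 4, 5 and 5 of the 8 were lower and 1, 2 and 1 were higher at 4, 6 and 8 months. The sum of the 8 ran from 14.98 to 15.1 in WT and from 14.6 to 14.8 in rTg4510 libraries at 6 months. Microglia sums were also apart at 4 months (14.83 to 15.05 against 14.63 to 14.72) and 8 months (14.70 to 14.97 against 14.39 to 14.50). B cell sums were apart at 4 months (6.27 to 7.27 against 5.13 to 6.12), with 2 of 4 markers lower DEGs. Border macrophage sums were apart at 4 months (10.25 to 11.03 against 9.90 to 10.16; 0 of 5 markers passed) and oligodendrocyte sums at 6 months (7.54 to 7.98 against 6.59 to 7.26), where 0 of 6 markers passed. Neuron sums were apart at 4 months (5.44 to 6.14 against 4.30 to 5.34), where 0 of 3 markers passed. At 6 months 1 of these 3 was a lower DEG. Endothelial sums overlapped at every age, but single markers moved in both directions. Of the 7, 1, 1 and 1 were higher DEGs and 1, 2 and 1 were lower DEGs at 4, 6 and 8 months. Astrocyte sums also overlapped at every age, while 1 of 6 markers was a higher and 1 a lower DEG at 6 and at 8 months. The part of any of these cells in the values of the transporters was not tested.

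**Figure D4:**
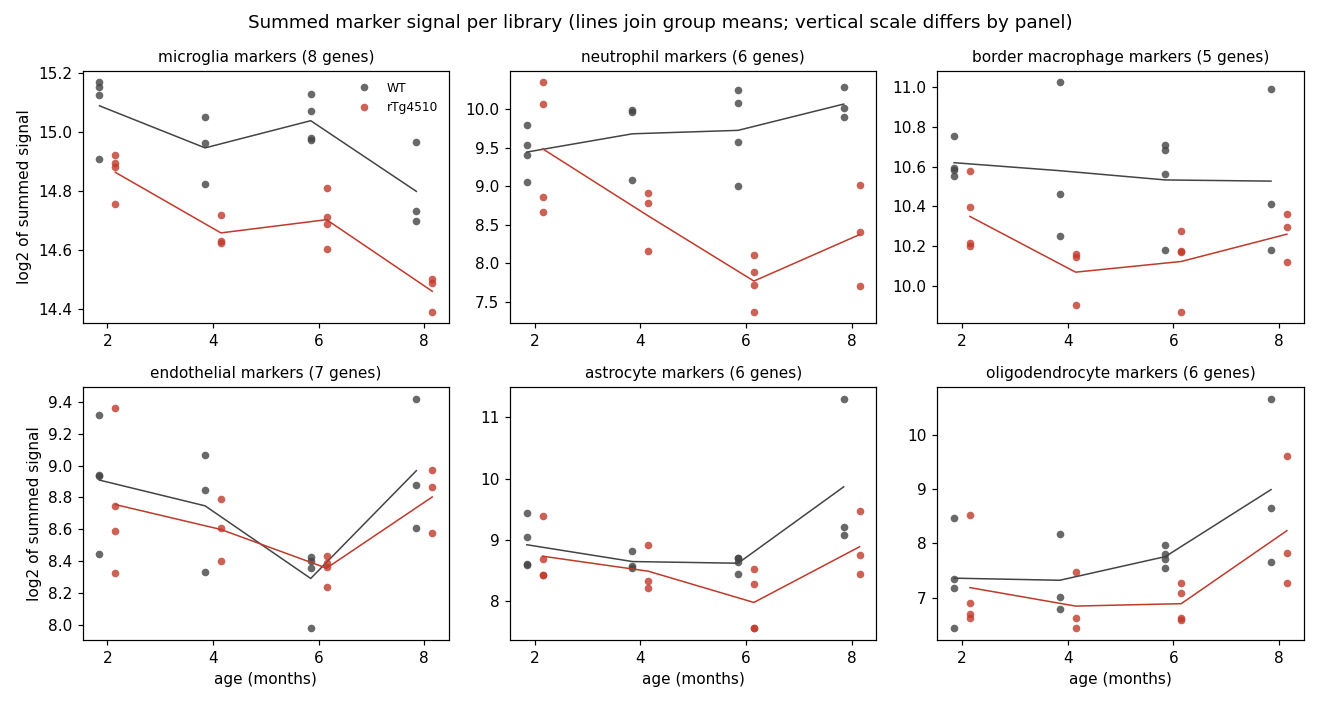
Summed log2 level of marker genes of each cell type (vertical axis) in each library by age, WT in grey and rTg4510 in red. Microglia markers stay between 14.4 and 15.2, neutrophil markers are lower in rTg4510 libraries at 6 and 8 months, and at 8 months 1 WT library stands high for astrocyte (11.3) and oligodendrocyte (10.7) markers.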

How the data were processed

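Microglial RNA was sequenced from 32 libraries as 100-base reads. The authors aligned the reads, dropped exons below 10 counts in over 80% of samples, summarized the exons of a gene by robust linear modelling, median-normalized the libraries and deposited log2 gene signals. The genome build GRCm38 is named in the submitters' processing notes; aligner and annotation are not given in the sources used here. The values hold no read totals, so depth is unknown and no counting error can be given. The 4 libraries the authors excluded after quality control, replicate 3 of both genotypes at 4 months and replicate 4 at 8 months, were left out.

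Differences were tested with limma 3.58.1 in R 4.3.3, with 8 group means, variances per gene without moderation and Benjamini-Hochberg adjustment within each contrast; the code was tested on simulated data. P-values measure the spread between pools of animals. Entrez identifiers were matched to RefSeq symbols for 17828 genes (95.9%). The transporters and gene lists were chosen with earlier results of these data known. In the other lists, up to 4 DEGs per direction with the largest change at 6 months were named; of all genes, the 2 with the highest Pearson r were named for each transporter. A group was taken as near the floor where every library lay within 3 counts of its own lowest value, on a log2 scale of a count plus 1.5 that was inferred from the values. Alternatives covered moderation, the excluded libraries, fits on 2 groups, quantile normalization, a mean signal above 4 (15842 genes), an offset of 16, replicates as a block and each library left out. The comparisons of 2 with 6 and 8 months and the fits without replicate 1 of both genotypes at 8 months were chosen after seeing the data. Replicate numbers are shared by both genotypes: deviations from group means correlated for same-numbered libraries between 0.065 and 0.167 (2 months), -0.10 and 0.124 (4 months), 0.131 and 0.153 (6 months), and 0.15 and 0.291 (8 months). Same-numbered libraries were taken as pairs at 6 and 8 months, from the values alone, since the labels do not say what a number marks. The replicate block, however, joined same-numbered libraries at all ages, also at 2 and 4 months.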

Additional observations from a re-analysis of the deposited data

Results flagged for a closer look

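In 3 of 40 sets of 4 libraries 1 library stood far from the others, by its gap to the nearest divided by the whole range; chance gives about 1 in 20. These were Slc3a2 in WT at 2 months (0.849, the library at 8.09), Slc7a1 in rTg4510 at 2 months (0.874, the library at 4.58) and Slc38a2 in WT at 2 months (0.888, the library at 7.10). The genotype difference changed between ages for Slc38a6, by 0.69 from 2 to 4 months and by 0.795 from 2 to 8 months, and for Slc1a5, by 1.03 from 2 to 8 months, each tested as an interaction in limma.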

How the results depend on the processing

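Of 936 refits of transporter contrasts that passed the FDR as reported, 0 changed sign, while 60 of 2304 refits of those that had not passed did; with all 32 libraries, for example, Slc7a11 at 4 months was -0.042 and the change in the genotype difference of Slc7a1 between 2 and 4 months -0.029. Many of these refits could not change a sign. Moderation, the filter on mean signal, fits on the groups of a contrast and the replicate block left the genotype differences as they were. A left-out library changes only contrasts that use its group. The count of signs is therefore no measure of stability. Of the DEG calls for each transporter, age and alternative, 1412 stayed as they were, 18 were lost and 10 gained. Many of these calls could likewise change only through the variance or the FDR. The replicate block gave 0, 2, 2 and 3 DEGs and 1, 5, 6 and 6 transporters past the FDR at the 4 ages, and changed no call among the results planned; of the age comparisons added later it ended those of Slc3a2 given above. With all 32 libraries 1 transporter was a DEG at 4 months, namely Slc7a7 (-0.615, FDR = 0.00813), while Slc7a1 (0.175, FDR = 0.674) and Slc38a6 (0.296, FDR = 0.34) no longer passed; 2 were DEGs at 8 months, 0, 2, 3 and 4 passed the FDR at 2, 4, 6 and 8 months (Slc7a7 and Slc38a1; Slc1a5, Slc3a2 and Slc38a1; these 3 and Slc38a6), and 0 interactions passed between 2 and 4 months; the excluded rTg4510 replicate 3 at 4 months read 3.42 for Slc7a1 and 6.66 for Slc7a7. Fits on the groups of a contrast alone gave 0 DEGs at 4 months, 0, 2 and 3 past the FDR at 2, 4 and 8 months, and 0 interactions between 2 and 4 months. An offset of 16, which shrinks low genes, gave 0, 0 and 1 DEGs at 4, 6 and 8 months, 0 interactions between 2 and 4 months and 0 DEGs from 2 to 8 months in rTg4510. Quantile normalization gave 3 DEGs at 6 months, adding Slc7a1 (0.601), and 7 past the FDR at 6 and at 8 months, adding Slc7a8. Leaving out each library gave 0 DEGs at 2 months, 1 to 3 at 4 months, 2 to 3 at 6 months and 3 at 8 months. By FDR alone it gave 1 to 2, 5 to 6, 6 to 7 and 5 to 7. The interaction between 2 and 4 months gave 0 to 2, with 0 without rTg4510 replicate 4 and 2 without rTg4510 replicate 2 at 4 months, and 2 to 3 DEGs were left from 2 to 8 months in rTg4510. Apart from the offset and these fits, the cause of the changes was not tested. Depth could not be read from the files and limits low genes such as Slc1a5 in an unknown way.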
